A study of Mus musculus with 9 samples.

Results

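The genes described here are Tyr, Tyrp1, Dct, Pmel, Mlana, Slc45a2 and Oca2, the enzymes, matrix protein and transporters with which pigment cells make melanin. They were chosen by name, as every probe whose RefSeq transcript accession matched 1 of these 7 symbols. Together they had 9 probes of the 39429 on the array, and 7 genes of the 32496 genes or unnamed transcripts represented there. All 7 genes passed the filter on dim probes, through 8 of their 9 probes, against 23862 of the 32496 in the whole series. Each gene had a probe that was well above background on all 9 arrays, so none entered through 1 group alone.

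The samples were retinas of adult male C57BL/6 mice, measured on single-colour (Cy3) Agilent mouse arrays. The 3 groups had received AAP, HAN or phosphate-buffered saline (PBS, the negative control) into the vitreous of the right eye, with 12 mice in a group. The series title calls AAP and HAN high-affinity peptides against vascular endothelial growth factor, and the labels word the dose as 1 µM for all 3 injections. Retinas were taken 7 days later and pooled by 4, which gave 3 pools and 3 arrays in each group, named AAP 1 to 3, HAN 1 to 3 and PBS 1 to 3 after the replicate numbers. An array therefore measured a pool and not a mouse, and no uninjected eye is among the groups. The p-values of group differences rest on the spread between pools, estimated over all 3 groups together. Those of correlations come from permuting the 9 pools.

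Melanin is made inside melanosomes, organelles of pigment cells that mature on an amyloid scaffold and take up tyrosine-oxidising enzymes. In the back of the eye it lies in the retinal pigment epithelium, the single cell layer behind the photoreceptors, and in melanocytes of the choroid, while the iris and ciliary body in front carry pigmented layers of their own. The neural retina itself makes no melanin.

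Several melanin genes share a promoter element, which is why the promoters are shown here. Tyrosinase (Tyr) oxidises tyrosine in the rate-limiting step, and Tyrp1 and Dct are related enzymes that act on later intermediates. In mouse and human pigment cells the transcription factor MITF binds E boxes with the core CATGTG, and the longer M box, TCATGTGCT with AG in front of it, contains that core. RefSeq promoter windows of the build GRCm38.p6, each 250 bases before to 50 bases after the start of the gene, were found for 4 of the 7 genes. They lie at chr7:87493463-87493762 on the minus strand (Tyr), chr4:80833963-80834262 on the plus strand (Tyrp1), chr14:118052197-118052496 on the minus strand (Dct) and chr7:56239509-56239808 on the plus strand (Oca2). Pmel, Mlana and Slc45a2 are named only. In the windows of the 3 enzymes below, written 5′ to 3′ along the gene, capitals mark CATGTG or its reverse complement CACATG.
Tyr: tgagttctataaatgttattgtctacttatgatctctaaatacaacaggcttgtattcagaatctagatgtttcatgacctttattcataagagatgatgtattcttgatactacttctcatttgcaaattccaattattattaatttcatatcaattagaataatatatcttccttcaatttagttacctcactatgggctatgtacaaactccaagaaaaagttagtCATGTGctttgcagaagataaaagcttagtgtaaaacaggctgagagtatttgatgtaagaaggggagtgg
Tyrp1: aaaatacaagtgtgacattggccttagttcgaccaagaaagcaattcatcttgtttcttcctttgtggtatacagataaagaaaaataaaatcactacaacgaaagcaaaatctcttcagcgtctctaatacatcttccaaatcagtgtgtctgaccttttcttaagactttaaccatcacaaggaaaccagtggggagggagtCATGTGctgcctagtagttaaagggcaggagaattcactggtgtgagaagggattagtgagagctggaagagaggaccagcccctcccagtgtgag
Dct: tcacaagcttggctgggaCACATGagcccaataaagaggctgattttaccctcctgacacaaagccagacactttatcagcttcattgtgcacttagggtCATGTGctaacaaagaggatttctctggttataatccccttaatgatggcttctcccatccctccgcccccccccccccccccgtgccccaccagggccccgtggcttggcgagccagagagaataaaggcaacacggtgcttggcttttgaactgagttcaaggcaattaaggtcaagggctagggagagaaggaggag

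The core CATGTG, read on both strands, was present in all 4 of these windows and in 14.2% of the 32851 promoter windows in the table. With its flanks as TCATGTGCT it was present in 3 of the 4, those of Tyr, Tyrp1 and Dct, and in 0.408% of all windows. The full M box was present in 2 of the 4, those of Tyr and Tyrp1, and in 0.0213% of all windows, which is 7 windows. Each longer motif contains the shorter one. The motifs were looked for because melanin genes are known to share the element, so these shares describe the windows and test nothing. The sites are set out below on the strand that reads CATGTG.
Tyr site: aagttagtCATGTGctttgcag
Tyrp1 site: gagggagtCATGTGctgcctag
Dct site, forward: cttagggtCATGTGctaacaaa
Dct site, reverse: attgggctCATGTGtcccagcc
Oca2 site, reverse: attccagcCATGTGtagcaagc
The site in Tyr lies 21 bases before the start and that in Tyrp1 lies 46 bases before it. Dct holds its forward site 150 bases and its reverse site 232 bases before the start, and Oca2 holds a reverse site 186 bases before it. A match of letters is a description of the window and says nothing of whether the site was bound in these retinas.

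Over the whole series, 71.6% to 79.2% of spots on an array were well above background, and the 75th percentile of the signal ran between 1340 in AAP 3 and 2349 in PBS 1. All 14 genes of a list of retinal cell markers, among them the rod transducin Gnat1 and the cone arrestin Arr3, were measured, and their mean stayed between -0.058 and 0.050 of the PBS mean on the log2 scale in the 9 pools. Arrays were close to each other over all genes, with Pearson's r of 0.980 to 0.995 for 9 same-group pairs and 0.979 to 0.995 for 27 pairs of different groups. Transcripts of neighbouring tissue set single pools apart. The mean of 12 measured skeletal muscle genes stood 5.35 above the PBS mean in AAP 1 and 4.07 above it in AAP 3 on the log2 scale, against -0.16 in AAP 2, between -0.035 and 0.024 in the HAN pools and between -0.27 and 0.33 in the PBS pools. Slide 1 held AAP 1 and the 3 PBS pools, slide 2 held AAP 2, AAP 3, HAN 1 and HAN 2, and slide 3 held HAN 3.

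Whether melanin gene transcripts differ after the first peptide was asked by setting AAP retinas against PBS retinas. All 7 genes had a lower mean in AAP than in PBS retinas, most of all Mlana, Pmel, Dct and Tyrp1, and none of these differences passed the test over all genes. Values below are log2 of the processed signal minus the 75th percentile of the array, so 0 is the array's own 75th percentile, and each probe has a scale of its own. In such bulk pools, fewer cells of a type and less RNA per cell cannot be told apart.

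Mlana encodes melan-A, a small melanosome membrane protein that takes part in the maturation of Pmel. It stood at 0.64, 1.63 and -0.12 in AAP 1, 2 and 3, at 1.49, 3.15 and 0.48 in HAN 1, 2 and 3, and at 2.37, 2.18 and 1.69 in PBS 1, 2 and 3. All 3 AAP pools lay below all 3 PBS pools, while the HAN pools lay on both sides of them. The means were 0.72 ± 0.88 in AAP and 2.08 ± 0.35 in PBS (SD, n = 3 each), a log2 difference of -1.36 (SE 0.68, 95% confidence interval -2.94 to 0.21; limma adjusted p = 0.738).

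Pmel forms the amyloid fibrils on which melanin is laid down. Its values were 0.17, 1.23 and -0.06 in the AAP pools, 1.00, 2.56 and 0.03 in the HAN pools and 1.95, 1.97 and 1.35 in the PBS pools. The AAP and PBS pools again did not overlap, with AAP 2 only slightly below PBS 3. The difference between AAP (0.45 ± 0.69) and PBS (1.76 ± 0.35) was -1.31 on the log2 scale (SD, n = 3 each; SE 0.62, interval -2.73 to 0.12; limma adjusted p = 0.733), the lowest adjusted p of the 7 genes in this comparison.

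Tyrp1 encodes tyrosinase-related protein 1, a melanosomal enzyme of eumelanin synthesis. It stood at 0.91, 1.46 and 0.75 in the AAP pools, at 1.16, 2.69 and 0.24 in the HAN pools and at 2.17, 2.01 and 1.70 in the PBS pools. Every AAP pool was below every PBS pool, and the HAN pools held both the highest and the lowest value of the 9. The log2 difference of AAP (1.04 ± 0.38) from PBS (1.96 ± 0.24) was -0.92 (SD, n = 3 each; SE 0.54, interval -2.18 to 0.33; limma adjusted p = 0.773).

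Dct, dopachrome tautomerase, converts an indole intermediate of eumelanin and is also made early by cells of the developing optic cup. Its values were 3.47, 4.32 and 2.33 in the AAP pools, 4.05, 5.65 and 3.03 in the HAN pools and 4.77, 4.35 and 4.17 in the PBS pools. AAP 2 lay among the PBS pools, and AAP 1 and AAP 3 lay below them. The difference of AAP (3.38 ± 1.00) from PBS (4.43 ± 0.31) was -1.05 (SD, n = 3 each; SE 0.70, interval -2.66 to 0.56; limma adjusted p = 0.805). A second Dct probe followed the first closely, with a difference of -1.07 between AAP and PBS and r = 0.9995 with the first probe over the 9 arrays.

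**Figure D1:**
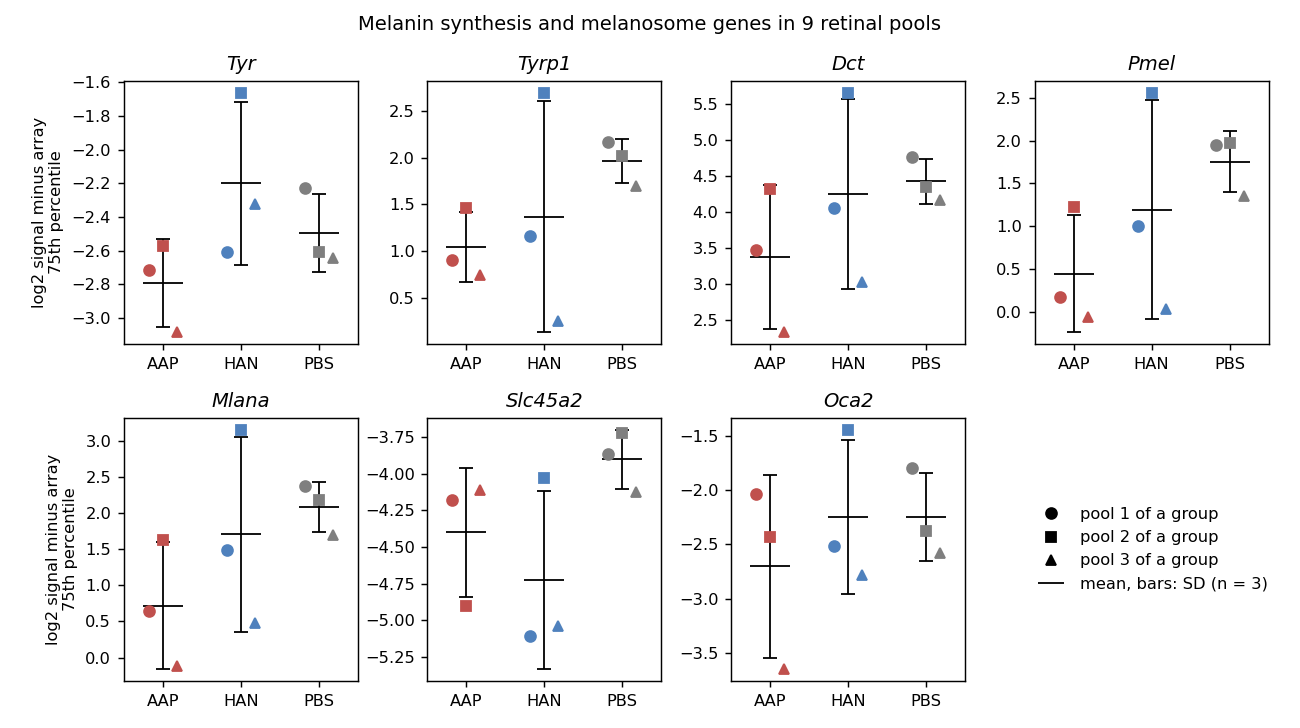
Level of each of the 7 genes in the 9 pools, as log2 processed signal minus the 75th percentile of the array; 1 panel a gene, AAP (red), HAN (blue) and PBS (grey) along the x axis, pool number by symbol, horizontal lines for means and bars for SD (n = 3). HAN 2 is the highest point in 6 of the 7 panels and AAP 3 the lowest in 5, and in Tyrp1, Pmel and Mlana all AAP points lie below all PBS points.

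The 3 remaining genes had smaller differences. Oca2 encodes the chloride channel of the melanosome membrane that raises its pH, and it stood at -2.04, -2.43 and -3.65 in the AAP pools, at -2.52, -1.45 and -2.78 in the HAN pools and at -1.80, -2.38 and -2.58 in the PBS pools. AAP 1 and AAP 2 lay within the range of the PBS pools, so the difference of -0.45 (SE 0.48, interval -1.58 to 0.67; limma adjusted p = 0.868) came with AAP 3 alone below that range. Without AAP 3 the difference was 0.018.

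Slc45a2, a melanosomal transporter whose loss lightens coat and eyes in mice, had -4.18, -4.91 and -4.11 in the AAP pools, -5.11, -4.03 and -5.04 in the HAN pools and -3.86, -3.72 and -4.12 in the PBS pools. AAP 3 lay just inside the PBS range, AAP 1 just below it and AAP 2 well below it. The difference of AAP from PBS was -0.50 (SE 0.32, interval -1.25 to 0.25; limma adjusted p = 0.801), and without AAP 2 it was -0.24. Its signal was dim but above background everywhere, between 58.6 and 162.7 intensity units.

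Tyr itself had -2.72, -2.57 and -3.08 in the AAP pools, -2.61, -1.66 and -2.33 in the HAN pools and -2.23, -2.61 and -2.65 in the PBS pools. AAP 2 lay within the PBS range, with AAP 1 just below it and AAP 3 further down. Its difference of AAP from PBS, -0.30 (SE 0.25, interval -0.88 to 0.28; limma adjusted p = 0.843), was the smallest in size of the 7, and without AAP 3 it was -0.15. A second Tyr probe was well above background on 2 arrays alone, HAN 2 and PBS 1, and was therefore not tested. Its signal was 5.08 to 29.3 intensity units.

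As a set, 7 of 7 genes were lower in AAP than in PBS, with a median log2 difference of -0.92 against 0.0032 over all 23862 genes tested. In the model over all 3 groups, none passed an adjusted p of 0.05 in limma. Of all genes 0.00419% did so, a single transcript with no gene symbol in the table. None of the 7 had an unadjusted p under 0.05 in that model (6.78% of all genes). The AAP and PBS pools were also fitted alone. The intervals were then -1.46 to -0.39 for Tyrp1, -2.21 to -0.41 for Pmel and -2.46 to -0.27 for Mlana. These lay wholly below no difference, while those of Dct, Tyr, Slc45a2 and Oca2 did not. None of the 7 passed after adjustment there either (limma adjusted p of 0.84 or more). The groups did not overlap, with AAP lower, for 3 of the 7, against 5.53% of all genes. The 7 genes vary together between pools, so these are not 7 separate observations.

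The second peptide was compared in the same way, HAN against PBS. Of the 7 genes, 5 had a lower mean and 2 a higher mean in HAN, with a median of -0.38 against 0.0050 over all genes, and none passed an adjusted p of 0.05 (0.00419% of all genes, again 1 transcript without a symbol). The HAN and PBS pools overlapped for all 7 genes, where 10.4% of all genes did not overlap with HAN lower and 20.9% did not in either direction. The lowest adjusted p was that of Slc45a2, which averaged -4.73 ± 0.61 in HAN and -3.90 ± 0.20 in PBS (SD, n = 3 each). That log2 difference was -0.82 (SE 0.32, interval -1.57 to -0.07; limma unadjusted p = 0.035, adjusted p = 0.491), the single one of the 7 with an unadjusted p under 0.05, against 9.67% of all genes. HAN 1 and HAN 3 were below all PBS pools for Slc45a2 and HAN 2 was among them.

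For the other genes the HAN pools were split, with HAN 2 high and HAN 3 low. Relative to the PBS mean, HAN 2 stood 1.23 higher for Dct, 1.07 for Mlana, 0.80 for Pmel and 0.73 for Tyrp1 on the log2 scale, while HAN 3 stood at -1.39, -1.60, -1.73 and -1.72 for the same genes. Within HAN the highest pool was 6.14-fold above the lowest for Dct, 6.37-fold for Mlana, 5.76-fold for Pmel and 5.46-fold for Tyrp1. The group differences from PBS had wide intervals, at -0.18 for Dct (interval -1.79 to 1.43; limma adjusted p = 0.953), -0.38 for Mlana (-1.95 to 1.20; adjusted p = 0.893), -0.56 for Pmel (-1.99 to 0.86; adjusted p = 0.808) and -0.60 for Tyrp1 (-1.85 to 0.66; adjusted p = 0.766). Oca2 showed a difference of 0.0030 (-1.12 to 1.12; limma adjusted p = 0.999) and Tyr one of 0.29 (-0.29 to 0.88; adjusted p = 0.745). Without HAN 3 the differences of Dct, Mlana and Pmel were 0.43, 0.24 and 0.022, and without HAN 2 they were -0.88, -1.10 and -1.24. Both peptide comparisons used the same 3 PBS pools, so their values are not independent of each other.

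Set directly against HAN, AAP retinas had a lower mean for 6 of the 7 genes and a higher mean for Slc45a2, with a median difference of -0.59 against 0.0015 over all genes. None passed an adjusted p of 0.05 in limma (0% of all genes did), and 1, Tyr, had an unadjusted p under 0.05 (8.53% of all genes). Tyr averaged -2.79 ± 0.26 in AAP and -2.20 ± 0.48 in HAN, a difference of -0.59 (SD, n = 3 each; SE 0.25, interval -1.17 to -0.011; limma unadjusted p = 0.0466, adjusted p = 0.574). HAN 1 lay within the AAP range for Tyr, and without HAN 2 the difference was -0.32. The AAP and HAN pools overlapped for all 7 genes, against 14.3% of all genes with pools apart in either direction. The other differences were -0.99 for Mlana, -0.87 for Dct, -0.75 for Pmel, -0.46 for Oca2, -0.33 for Tyrp1 and 0.33 for Slc45a2, with adjusted p between 0.636 and 0.827 in limma. AAP and HAN were given at the same labelled dose and time.

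**Figure D2:**
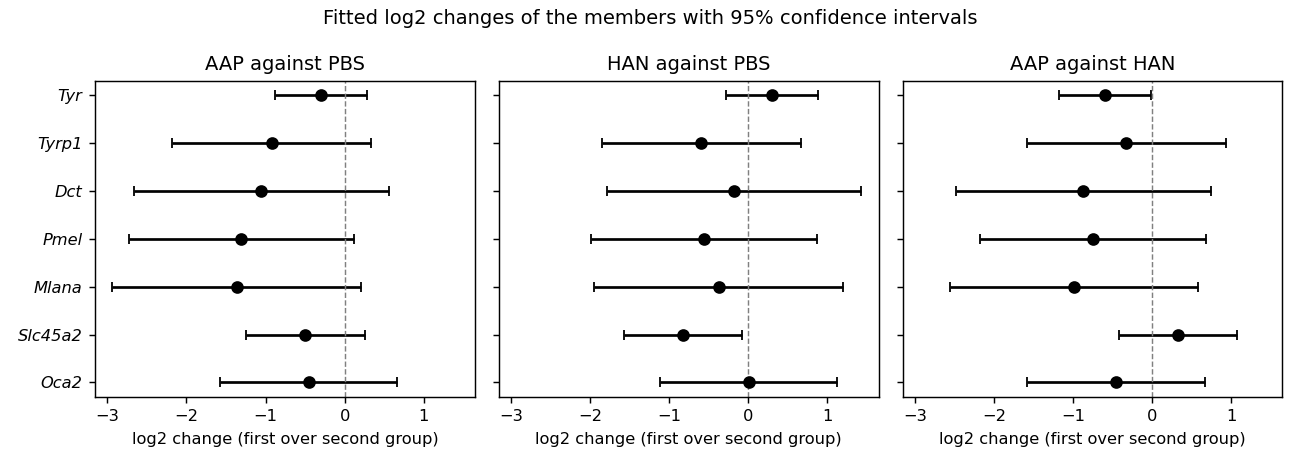
Fitted log2 differences of the 7 genes (points) with 95% confidence intervals (bars) from the limma model over 9 arrays, with AAP against PBS on the left, HAN against PBS in the middle and AAP against HAN on the right. Positive values mean higher in the first-named group. All 7 points are below 0 for AAP against PBS, and the intervals that exclude 0 are those of Slc45a2 for HAN against PBS and of Tyr for AAP against HAN, neither of which passed after adjustment.

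The pools of a group differed more for these genes than for most. The median half-width of the 95% interval was 1.26 on the log2 scale for the 7 genes and 0.24 for all genes. The SD within groups was 0.97 for Dct, 0.95 for Mlana, 0.86 for Pmel, 0.76 for Tyrp1, 0.68 for Oca2, 0.45 for Slc45a2 and 0.35 for Tyr, against a median of 0.13 over all genes. In that order these stood at the 98.1, 97.9, 97.5, 96.6, 95.6, 90.4 and 85.5 percentile of all genes. Over the 9 pools the highest was 9.99-fold above the lowest for Dct and 9.62-fold for Mlana, compared with 2.68-fold for Tyr, 2.62-fold for Slc45a2 and a median of 1.37-fold for all genes. The spread differed by group, with a median fold range of 2.44 in AAP and 5.46 in HAN against 1.52 in PBS.

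Averaged over the 7 genes, AAP 1, 2 and 3 stood at -0.76, -0.41 and -1.36 relative to the PBS mean, HAN 1, 2 and 3 at -0.59, 0.76 and -1.13, and PBS 1, 2 and 3 at 0.26, 0.033 and -0.29. Thus 1 HAN pool was the highest of all 9 and the remaining peptide pools were all below the lowest PBS pool. HAN 2 was the highest pool for 6 of the 7 genes, Slc45a2 being the exception. AAP 3 was the lowest for 5 of the 7, the exceptions being Tyrp1, lowest in HAN 3, and Slc45a2, lowest in HAN 1. Within slide 1, where AAP 1 can be set against the 3 PBS pools, AAP 1 differed from the PBS mean by -1.58 for Pmel, -1.44 for Mlana, -1.06 for Tyrp1, -0.96 for Dct, -0.28 for Slc45a2, -0.22 for Tyr and 0.21 for Oca2. Within slide 2 the mean of AAP 2 and AAP 3 differed from that of HAN 1 and HAN 2 by -1.56 for Mlana, -1.52 for Dct, -1.19 for Pmel, -1.06 for Oca2, -0.82 for Tyrp1, -0.69 for Tyr and 0.062 for Slc45a2. No slide held both HAN and PBS pools. The direction of Oca2 thus turned within slide 1, and the other 6 genes kept their direction in AAP against PBS there.

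The genes varied together from pool to pool, some more closely than others, and a relation to their place in the pathway was not tested. Among Tyrp1, Dct, Pmel and Mlana, a group picked out after the values were seen, the 6 pairs had Pearson's r of 0.908 to 0.985 and Spearman's rho of 0.967 to 0.983 over the 9 pools. The highest was Pmel with Mlana at r = 0.985 (rho = 0.983), with Dct and Mlana next to it at r = 0.984 (rho = 0.983). In exact two-sided permutation tests the Benjamini-Hochberg adjusted p of these 6 pairs, over the 28 relations computed, was 7.716e-05 to 0.0040 for r and 0.000463 to 0.00077 for rho. Taken as deviations from the group means, r was 0.924 to 0.989, and without the 2 pools farthest from the median it was 0.855 to 0.995.

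Tyr and Oca2 joined this pattern through few pools. Their 8 pairs with those 4 genes had r of 0.61 to 0.87 (rho 0.52 to 0.82), of which 4 had an adjusted p under 0.05 by r and 1 by rho (exact permutation, two-sided). Taken as deviations from the group means, r was 0.71 to 0.86. Without the 2 pools farthest from the median, r was 0.030 to 0.58, so these relations rest on those pools. Tyr with Oca2 had r = 0.80 and rho = 0.53 (exact permutation p = 0.0171 and 0.148, adjusted p = 0.0436 and 0.206), and its r was 0.18 without its 2 farthest pools. Slc45a2 stood apart from the other 6 genes, with r of 0.076 (Tyr) to 0.60 (Tyrp1), rho of 0.067 to 0.67 and no pair passing in the exact permutation test. All of these correlations share the same 9 pools, in 3 groups on 3 slides, and the pools of a group share their treatment. Over all 21 pairs, 11 had an adjusted p under 0.05 by r and 7 by rho.

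**Figure D3:**
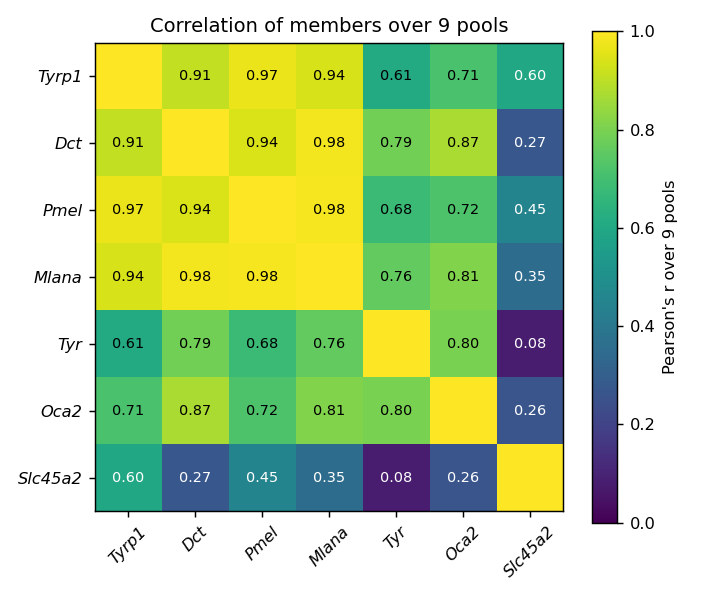
Pearson's r over the 9 pools for each pair of the 7 genes, as colour and number, with the diagonal left blank. The block of Tyrp1, Dct, Pmel and Mlana holds values of 0.91 to 0.98, and the row of Slc45a2 holds the lowest, between 0.08 and 0.60.

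Other genes of the retinal pigment epithelium, taken as a list, correlated weakly with most of the melanin genes. Of 27 listed genes 26 were measured, among them the visual cycle enzymes Rpe65, Lrat and Rdh5, the opsin-like Rgr, transthyretin (Ttr) and the lactate transporter Slc16a8, and 1, Best1, did not pass the filter. Their mean relative to PBS ran from -0.23 to 0.51 in AAP, from -0.35 to -0.015 in HAN and from -0.095 to 0.089 in PBS. AAP 1 was the high pool. Of 6 genes chosen after their values were seen, it had Rgr at 1.34, Rpe65 at 1.27, Lrat at 1.18, Rdh5 at 1.07, Slc16a8 at 1.00 and Ttr at 0.92 above the PBS mean. In that same pool Pmel stood at -1.58, Mlana at -1.44, Tyrp1 at -1.06 and Dct at -0.96. HAN 3 was low for both sets and HAN 2 was high for the melanin genes and not for these, with Rpe65 at 0.067 and Lrat at -0.30 there. Slc26a4, the anion exchanger pendrin, also chosen after its values were seen, was the gene of this list most like the melanin genes (r = 0.647 with the mean of the 7). It stood at -3.19, 1.03 and -4.25 in the AAP pools, at 0.58, 1.67 and -0.51 in the HAN pools and at 0.44, -1.25 and 0.81 in the PBS pools.

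Over the groups, 19 of the 26 pigment epithelium genes had a higher and 7 a lower mean in AAP than in PBS (median 0.15), while 24 were lower in HAN than in PBS (median -0.22) and 24 higher in AAP than in HAN (median 0.33). None of the 26 passed an adjusted p of 0.05 in limma in any of the 3 comparisons, and 1, 0 and 8 of them had an unadjusted p under 0.05 in that order, where 6.78%, 9.67% and 8.53% of all genes did. The 4 with the smallest p were Ermn, Rrh, Slc16a8 and Ttr. They had 0.33, 0.19, 0.39 and 0.27 in AAP against PBS and 0.10, -0.15, -0.47 and -0.45 in HAN against PBS (limma adjusted p of 0.597 or more). Against the mean of this list, the 7 melanin genes had r of 0.0077 (Tyr) to 0.54 (Oca2) and rho of 0.033 to 0.70 over the 9 pools, and none passed in the exact permutation test after adjustment over the 28 relations. The r of deviations from the group means was 0.30 to 0.83, and without the 2 farthest pools it was 0.73 for Oca2 and -0.40 to 0.095 for the other 6.

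**Figure D4:**
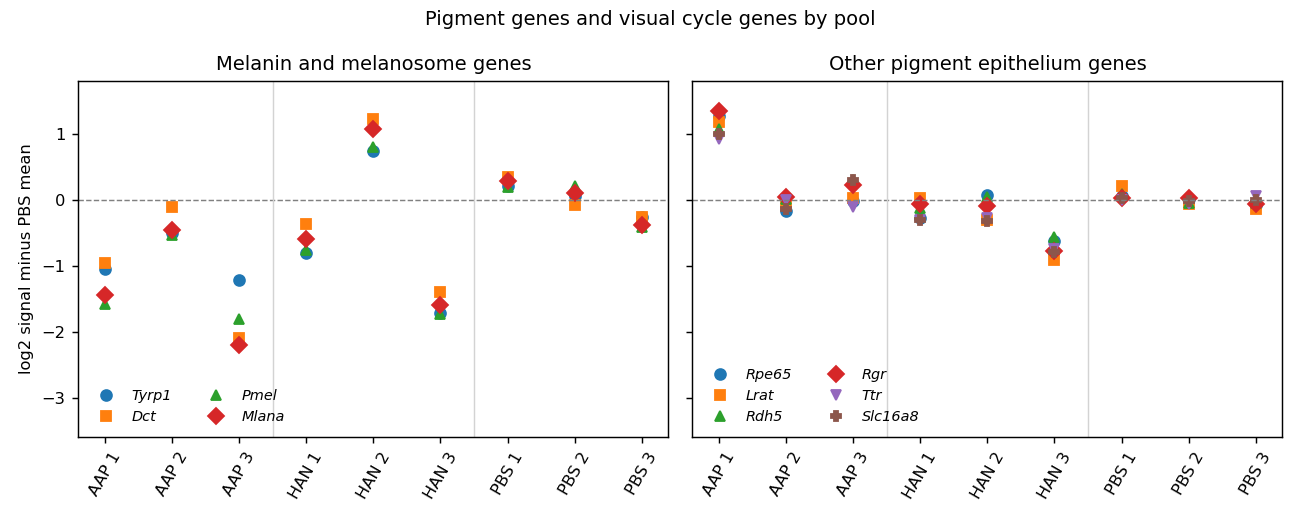
Log2 signal minus the PBS mean in each of the 9 pools (x axis) for the melanin genes Tyrp1, Dct, Pmel and Mlana (left panel) and for 6 other pigment epithelium genes, Rpe65, Lrat, Rdh5, Rgr, Ttr and Slc16a8 (right panel), 1 symbol a gene. In AAP 1 the left-hand genes stand at -1.58 to -0.96 and the right-hand genes at 0.92 to 1.34, whereas in HAN 3 both sets are below 0.

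Markers of other tissues that could accompany a dissected retina also moved between pools, and their part in the differences of the melanin genes was not tested. Of 16 iris and ciliary body genes 13 were measured (Otx1, Foxc2 and Opn5 did not pass the filter), and their mean ran from -0.77 to 0.14 in AAP, from -0.28 to 0.32 in HAN and from -0.34 to 0.30 in PBS. As with the melanin genes, AAP 3 was the lowest and HAN 2 the highest of the pools for this list. Of 12 choroid and sclera stroma genes 11 were measured (not Dpt), with means of -0.30 to 1.02 in AAP, -0.45 to 0.12 in HAN and -0.74 to 0.81 in PBS. Lens genes, 20 of 20 measured, ran from -2.04 to 2.28 in AAP, from 0.60 to 1.44 in HAN and from -2.17 to 1.19 in PBS. Of 12 cornea genes 10 were measured (not Kera or Upk1b), with means of -1.54 to 3.04 in AAP, -0.49 to -0.051 in HAN and -1.20 to 1.96 in PBS. The 12 skeletal muscle genes measured of 15 (not Myh1, Myh2 or Ckm) were high in AAP 1 and AAP 3, the 2 AAP pools with the lower melanin gene means. AAP 2 is a single pool: 7 of 7 melanin genes were below the PBS mean in it, as they were in PBS 3 too. In AAP 2 against HAN 4 of 7 were lower, with a median of -0.076. Markers of neural crest melanocytes, 6 of 8 measured (not Erbb3 or Cdh19), had means of -0.55 to -0.010 in AAP, -0.30 to -0.031 in HAN and -0.21 to 0.21 in PBS. The 4 of them with the smallest p were Gpnmb, given below, and Sox10, Ednrb and Pax3. The latter had 0.15, -0.21 and -0.37 in AAP against PBS and -0.12, -0.13 and -0.41 in HAN against PBS (limma adjusted p of 0.769 or more).

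The other genes of melanosomes showed no common shift in AAP against PBS. Of 12 further melanosome proteins, 8 had a lower and 4 a higher mean in AAP (median -0.079), and 0 passed an adjusted p of 0.05 in limma, with 2 at an unadjusted p under 0.05 (6.78% of all genes). Gpnmb, a transmembrane glycoprotein related to Pmel, stood at -0.65, 0.42 and -1.61 in the AAP pools, at 0.082, 1.52 and -0.50 in the HAN pools and at 1.28, 0.80 and 0.74 in the PBS pools. Its AAP pools were all below its PBS pools, and its HAN pools spread across them as those of Pmel did. The log2 difference was -1.56 for AAP against PBS (limma adjusted p = 0.715) and -0.58 for HAN against PBS (adjusted p = 0.804). Cd63, a tetraspanin that sorts Pmel, had -0.31 in AAP against PBS (limma adjusted p = 0.719). Gpr143, the melanosomal receptor mutated in ocular albinism, had -0.17 in AAP and -0.58 in HAN against PBS (limma adjusted p = 0.916 and 0.548). Trpm1, which also serves as the transduction channel of ON bipolar cells, had 0.049 in AAP and 0.21 in HAN (limma adjusted p = 0.912 and 0.469).

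The machinery that builds and moves melanosomes, which most cells also use for lysosome-related traffic, had list medians close to PBS, with exceptions among single genes. Of 30 biogenesis genes (subunits of BLOC-1, BLOC-2, BLOC-3, AP-3 and HOPS and their partners), 17 were lower and 13 higher in AAP than in PBS (median -0.014) and 20 were lower in HAN than in PBS (median -0.037). The BLOC-1 subunits Bloc1s1 and Bloc1s2 had -0.15 and -0.29 in HAN against PBS (limma adjusted p = 0.524 and 0.537), the vesicle SNARE Vamp7 had 0.18 there (adjusted p = 0.535), and Lyst, the beige gene, had -0.14 in AAP against PBS (adjusted p = 0.77). Of 12 transport genes 6 were lower and 6 higher in AAP (median 0.0098) and in HAN (median -0.013). Mreg, Myo7a, Rab1a and Kif5b had differences of -0.13 to 0.066 in AAP and -0.16 to 0.0071 in HAN, with adjusted p of 0.615 or more in limma. The larger differences belonged to a few genes, named here after their values were seen. Mlph, melanophilin, which links melanosomes to their myosin motor, stood at 0.59, 2.0 and 2.32 relative to the PBS mean in the AAP pools, at 2.16, 1.17 and -2.27 in the HAN pools and at 0.25, -0.14 and -0.12 in the PBS pools. Its AAP pools were all above its PBS pools and its HAN pools lay on both sides of them, and it was well above background on 3 AAP, 2 HAN and 3 PBS arrays. Its difference was 1.64 in AAP against PBS (limma adjusted p = 0.79) and 0.35 in HAN against PBS (adjusted p = 0.938). Rab38 and Rab32, GTPases that bring enzymes to melanosomes, had -0.64 and -0.50 in AAP against PBS (limma adjusted p = 0.819 and 0.814). None of these 30 and 12 genes passed an adjusted p of 0.05 or had an unadjusted p under 0.05 in any of the 3 comparisons. The median SD within groups was 0.093 for the biogenesis genes and 0.12 for the transport genes, against 0.76 for the 7 melanin genes.

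The regulators of pigment genes gave no passing difference either. Of 23 listed regulators 21 were measured (not Tfec or Asip), 12 of them lower and 9 higher in AAP than in PBS (median -0.025) and 13 lower in HAN than in PBS (median -0.033). In limma 0 passed an adjusted p of 0.05, and 2, 2 and 3 had an unadjusted p under 0.05 for AAP against PBS, for HAN against PBS and for AAP against HAN, where 6.78%, 9.67% and 8.53% of all genes did. Mitf, the master regulator of melanocytes and pigment epithelium, stood at 0.12, -0.16 and -0.23 relative to the PBS mean in the AAP pools, at -0.20, 0.41 and -0.24 in the HAN pools and at -0.0058, -0.010 and 0.016 in the PBS pools. It was highest in HAN 2, as were most melanin genes. HAN 3 was its lowest pool, as for Tyrp1 alone of those genes, with AAP 3 and HAN 1 close to it. Its differences from PBS were -0.093 in AAP and -0.012 in HAN (limma adjusted p = 0.932 and 0.99). Pax6, an eye field factor, had -0.20 in AAP against PBS (limma adjusted p = 0.726). Usf2, a further E box factor, had -0.44 in HAN against PBS (limma adjusted p = 0.437), with all HAN pools below all PBS pools. The endothelin ligand Edn1 had -0.33 in AAP against HAN (limma adjusted p = 0.574).

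Edn3, the endothelin that promotes melanoblast growth, was well above background on all 3 PBS arrays and on no AAP or HAN array. It thus passed the filter on dim probes through the PBS group alone, and that filter favours a gene that is high in PBS. In these pools the PBS mean was at least 1.12-fold above that of AAP and at least 1.44-fold above that of HAN. Neither difference passed in limma (adjusted p = 0.686 and 0.381), and the signals were near the background. Each bound takes the PBS mean over a floor for the peptide group. On each array that floor was the dimmest signal of any probe well above background, or the Edn3 signal where that was brighter, and the floors of a group were averaged.

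Genes whose pattern over the 9 pools was most like that of the melanin genes were sought among 4417 genes with a curated RefSeq messenger RNA and an SD of at least 0.2 on the log2 scale, by Pearson's r of log2 values. Against the mean of the 7 standardised genes, the closest was C2, complement component 2, at r = 0.975 (rho = 1). It was followed by Mgll, a monoacylglycerol lipase, at 0.948, Slc24a5, a cation exchanger of pigment cells, at 0.943, Gpnmb at 0.938, Hs3st3a1, a heparan sulfate sulfotransferase, at 0.920, and Thbd, thrombomodulin, at 0.903. The next 9 were Ankrd44, Plekhf1, Tspan10, Tns1, Siglec15, Tlcd1, Tmem220, Uap1l1 and Papss2, with r of 0.866 to 0.899. Without the 2 pools farthest from the median, HAN 2 and AAP 3, r was 0.941 for C2, 0.908 for Mgll, 0.918 for Gpnmb and 0.567 for Papss2. These values describe 9 pools that share groups and slides and carry no test.

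C2 stood at -0.69, -0.43 and -1.43 relative to the PBS mean in the AAP pools, at -0.47, 0.83 and -0.75 in the HAN pools and at 0.23, 0.21 and -0.43 in the PBS pools. Its order over the 9 pools was that of the mean of the standardised melanin genes. Slc24a5 stood at -0.10, -0.028 and -0.71 in the AAP pools, at -0.40, 0.46 and -0.39 in the HAN pools and at 0.17, 0.042 and -0.21 in the PBS pools, a narrower range with the same ends.

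**Figure D5:**
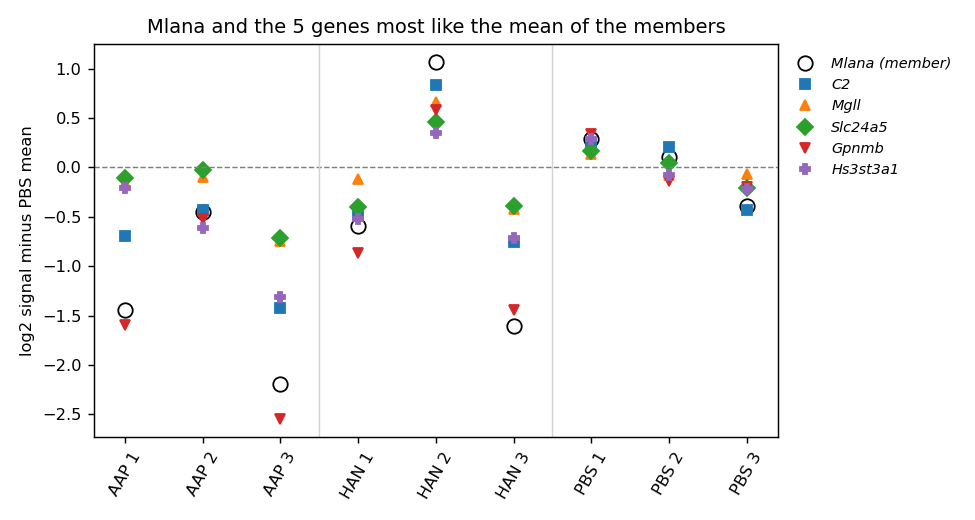
Log2 signal minus the PBS mean in each of the 9 pools for Mlana (open circles) and the 5 genes most like the mean of the 7 melanin genes, C2, Mgll, Slc24a5, Gpnmb and Hs3st3a1 (filled symbols). All 6 are highest in HAN 2 and lowest in AAP 3, with Gpnmb spanning -2.55 to 0.58 and Slc24a5 -0.71 to 0.46.

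Taken gene by gene, the 5 closest genes were partly shared and partly not. Gpnmb and C2 were among the 5 closest to each of Tyrp1, Dct, Pmel and Mlana, with r of 0.886 to 0.974. Tyr was closest to Npr3, the natriuretic peptide clearance receptor (r = 0.971), followed by Siglec15, Ehd2, the bicarbonate transporter Slc4a4 and Kctd12b. Oca2 was closest to Rassf9 (r = 0.958), followed by Cobll1, the glutathione transferase Gsta3, Smco4 and the transglutaminase Tgm1, none of which was among the closest 5 of another of the 7 genes. Slc45a2 was closest to Wnt6 (r = 0.964), followed by Tmed9, Rraga, Prpf19 and prosaposin (Psap), again a set of its own. Wnt6 had -0.13, -0.66 and 0.047 in the AAP pools relative to the PBS mean, -0.75, -0.16 and -0.92 in the HAN pools and -0.0054, 0.24 and -0.24 in the PBS pools, so it was low in AAP 2, HAN 1 and HAN 3 as Slc45a2 was. Of the 31 genes named by this rule, 3 stood in any of the lists used here, Gpnmb and Slc24a5 among the melanosome genes and Slc4a4 among the iris and ciliary body genes.

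Across the lists, r with the mean of the 7 melanin genes had a median of 0.066 in the pigment epithelium list, 0.29 in the iris and ciliary body list, 0.31 in the lens list, 0.023 in the choroid and sclera list and -0.48 in the muscle list, against -0.12 over all genes. Single genes outside the 7 with high values were Slc4a4 at 0.855 (iris and ciliary body list) and Mitf at 0.806 (regulators). Another was Rab38, the small GTPase that brings Tyr and Tyrp1 to melanosomes, at 0.835 (biogenesis list). Each was the highest of its list, where the lowest were Rdh8 at -0.49, Mgrn1 at -0.76 and Ap1g1 at -0.66. In that order 10 of 13, 11 of 21 and 14 of 30 genes had r above 0. The median was 0.021 for the regulators and -0.011 for the biogenesis list. Rab38 stood at -0.64, 0.13 and -1.42 in the AAP pools, at -0.15, 0.67 and -0.72 in the HAN pools and at 0.26, -0.49 and 0.24 in the PBS pools, relative to the PBS mean. Its AAP and PBS pools overlapped, and its difference of -0.64 did not pass (limma adjusted p = 0.819).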

How the data were processed

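Per the labels' protocols, Trizol was used for total RNA and the label was Cy3. Per the file headers, the authors quantified spot intensity with Agilent Feature Extraction 11.0.1.1 (protocol GE1_1100_Jul11, design on mm9), and the processed signal they deposited is a linear intensity, background-subtracted within the array with no scaling across arrays. A value table that the authors deposited held the same intensity, equal to the processed signal averaged over spots within a relative tolerance of 0.01 for 99.76% or more of probes. Its column medians were 265.5, 237.6 and 164.7 in AAP 1 to 3, 251.1, 242.5 and 296.5 in HAN 1 to 3, and 298.3, 256.4 and 231.9 in PBS 1 to 3.

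Of 44397 spots on an array 43020 were not controls. Outlier spots (103 to 160) were left out, and 0 were saturated. The deposited intensity was put on the log2 scale, the 75th percentile of the array was subtracted, and spots of a probe were averaged. A probe counted as well above background on an array where at least 50% of its spots did, and was kept where this held on all arrays of at least 1 group, which left 29272 probes. The brightest kept probe stood for a gene. The files hold no symbols: 26055 probes were named through their RefSeq accession with a table of the assembly GRCm38.p6 (19751 symbols), and 13374 kept their accession.

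All 9 arrays entered 1 limma model (limma 3.58.1 under R 4.3.3) with group means. Tests were two-sided, p-values were adjusted by Benjamini-Hochberg across the 23862 genes with a threshold of 0.05, and degrees of freedom were 6 (residual) and 1.85 (prior). It was tested on simulated data. Pairs of genes were compared over the 9 pools with exact permutation tests. The genes named from the lists were the 4 with the smallest p in each pigment list. Beyond that rule, Mitf, Rab38, Rab32, Mlph, Slc26a4 and some other pigment epithelium genes were chosen after their values were seen. The members and lists were chosen with earlier results of these data known. One marker of the retina list is not reported here and was left out of it. The number of arrays limits the precision. The alternatives were normexp background correction, quantile or median normalisation, other probe filters, the mean of probes, slide and replicate blocks, the value table, 2 groups alone, array weights and leaving out pools. The files hold no mean signal, so normexp (offset 50) used the median signal, with up to 13 spots on an array whose background exceeded 10 times the median set to the median.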

Additional observations from a re-analysis of the deposited data

How the results depend on the processing

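None of the 7 melanin genes passed an adjusted p of 0.05 under any alternative run, in any of the 3 comparisons. The lowest adjusted p over the alternatives was 0.431 for AAP against PBS, 0.263 for HAN against PBS and 0.38 for AAP against HAN. Some AAP against PBS intervals of Pmel and Mlana lay wholly below no difference. They were -2.21 to -0.41 and -2.37 to -0.36 with the replicate block, and -2.27 to -0.35 and -2.49 to -0.24 without HAN 2. With quantile normalisation, the array median or slide as a fixed block they did not. The Tyrp1 interval without HAN 2 also lay below no difference, at -1.60 to -0.25. In HAN against PBS without HAN 2, those of Tyrp1 (-2.02 to -0.50), Pmel (-2.31 to -0.17) and Slc45a2 (-1.76 to -0.59) did so too. Those of Dct, Mlana, Tyr and Oca2 did not. Of the values under alternatives, 2 of 154 turned direction for AAP against PBS, 12 of 147 for HAN against PBS and 6 of 154 for AAP against HAN. In AAP against PBS both were of Oca2, at 0.018 without AAP 3 and at 0.21 with slide as a fixed block. The latter is the value of AAP 1 alone against PBS within slide 1, as given above. Leaving out single pools moved Mlana between -1.82 and -0.95, Pmel between -1.70 and -1.06, Dct between -1.53 and -0.53, Tyrp1 between -1.14 and -0.78 and Oca2 between -0.79 and 0.018.

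In HAN against PBS, slide as a fixed block gave 0.57 for Dct and 0.12 for Mlana, and array weights gave 0.23 and 0.068 for them. No slide held both HAN and PBS, so the fixed slide block compares them only through AAP 1 and the slide 2 AAP pools. HAN 3, alone on its slide, adds nothing to that value. The fixed slide block gave 1.27 for Oca2 and -0.34 for Slc45a2 (interval -1.86 to 1.18). Oca2 gave -0.033 with quantile normalisation and -0.035 with the array median. Without single pools the lowest and highest values were -0.88 and 0.43 for Dct, -1.24 and 0.022 for Pmel, -1.10 and 0.24 for Mlana and -0.40 and 0.27 for Oca2, the ends being those without HAN 2 and without HAN 3. In AAP against HAN, with AAP 2 as the only AAP pool, Tyrp1 gave 0.096, Dct 0.079, Pmel 0.033 and Slc45a2 -0.18. A lone pool is assumed there to vary like the other groups. Without single pools Tyrp1 ran from -0.89 to 0.34 (without HAN 2) and Oca2 from -0.79 to 0.015 (without AAP 3). The cause of these turns was not tested.

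The number of genes called over all 23862 was 1 for AAP against PBS. It was 45 with slide as a fixed block, where AAP 1 alone stands against PBS, since no other slide held both groups. It was 0 with normexp, quantile normalisation, the array median, no filter on dim probes or only the 2 groups compared. Without single pools it was 0 to 11 (11 without AAP 2). For HAN against PBS it was 1, with 2 under the fixed slide block, 3 with array weights and 1 to 3 without single pools. For AAP against HAN it was 0, and 0 to 11 without single pools (11 without AAP 2). With the replicate number as a block it was 0 for AAP against PBS and 0 for HAN against PBS. Same-numbered pools correlated between -0.28 and 0.40 in their deviations from the group means, the highest being PBS 1 with AAP 1. Pools of different numbers were not compared, so whether the titles' replicate numbers pair the pools was not settled.

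The limits are 3 pools a group, group means carried by single pools (HAN 2, HAN 3, AAP 3), PBS on 1 slide with AAP 1 alone, no slide with both HAN and PBS, and marker transcript levels of neighbouring tissues that differed between pools.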
